A study of Mus musculus with 24 samples.

Results

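The immediate-early response genes described here were *Egr1*, *Fos*, *Jun*, *Junb*, *Ier2*, *Ier3*, *Atf3*, *Btg2* and *Klf6*, taken by gene name from the FPKM table of every liver library. They are 9 of the 54733 genes in the tables, and each name matched 1 gene. The study asked how the liver transcriptome changes when the rhythm of *Bmal1* transcription is removed. WT were wild-type C57BL/6 male mice, and ΔRRE were male mice of that strain homozygous for a CRISPR-Cas9 deletion of 2 ROR/REV-ERB response elements (RREs) near the start of *Bmal1* (named *Arntl* in the tables) in every cell of the body. The 24 libraries were made 4 h apart from CT2 to CT22 (2, 6, 10, 14, 18 and 22 h of circadian time, CT, projected from the preceding light cycle), with 2 libraries of each genotype per time point. Tissues in the study were collected from 26 h after the beginning of constant darkness, and its general methods give an age of 8 to 24 weeks, not stated apart for these livers. Animals of both genotypes were thus in darkness, without a further treatment named in the labels. The labels do not say whether the 2 libraries of a group came from separate animals, so p-values measure the spread between these libraries.

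Immediate-early genes are transcribed within minutes of a signal reaching the cell, from factors that are already present and need no new protein. Growth factor and stress signals reach them through MAP kinases, SRF with its ternary complex partners, and CREB. Their mRNAs are short-lived, so a level records the recent past of a cell. In liver they are known from regeneration after hepatectomy and from the responses to feeding and to inflammation.

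Of the 9 genes, 8 lie on chromosomes for which positions are given here, in GRCm38 (mm10) coordinates of GENCODE release M21. These are *Fos* at chr12:85473890-85477273 (+), *Jun* at chr4:95049034-95052222 (-), *Junb* at chr8:84974484-84978718 (-), *Ier2* at chr8:84661331-84662852 (-), *Ier3* at chr17:35821684-35822923 (+), *Atf3* at chr1:191170296-191218039 (-), *Btg2* at chr1:134075170-134079120 (-) and *Klf6* at chr13:5861482-5870394 (+). *Jun* and *Ier2* are single-exon genes in this annotation. RefSeq promoter windows in GRCm38.p6 were at hand for 7 of the 9 genes, while *Egr1* and *Ier2* had none. A window held 250 bases before the annotated start and 50 bases from the start on. Windows were searched on both strands for the cAMP response element TGACGTCA and its shorter form TGACG, which it contains, the AP-1 site TGACTCA, the related TGACATCA, the E-box CACGTG, the heat shock element core GAANNTTC, the TATA box TATAAA and the SRF-binding SRE. Shown are the stretches just before the annotated start for the 3 AP-1 subunit genes, to set them beside each other. Those of *Atf3*, with TGACG on the opposite strand, and of *Btg2*, with the full TGACGTCA, are shown too. All stretches read 5′ to 3′ on the strand of the gene, and capitals mark a motif of this search. They are *Fos* chr12:85473710-85473889 (+), *Jun* chr4:95052223-95052402 (-), *Junb* chr8:84978749-84978928 (-), *Atf3* chr1:191183334-191183513 (-), which lies inside the longer GENCODE gene model, and *Btg2* chr1:134079156-134079335 (-).
Fos: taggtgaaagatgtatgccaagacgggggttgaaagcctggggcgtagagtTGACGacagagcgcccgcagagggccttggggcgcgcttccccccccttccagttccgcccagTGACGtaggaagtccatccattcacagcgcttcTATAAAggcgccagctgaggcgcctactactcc
Jun: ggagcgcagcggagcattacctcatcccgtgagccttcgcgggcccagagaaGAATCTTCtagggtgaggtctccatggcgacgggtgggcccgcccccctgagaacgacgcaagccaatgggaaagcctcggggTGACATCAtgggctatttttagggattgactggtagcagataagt
Junb: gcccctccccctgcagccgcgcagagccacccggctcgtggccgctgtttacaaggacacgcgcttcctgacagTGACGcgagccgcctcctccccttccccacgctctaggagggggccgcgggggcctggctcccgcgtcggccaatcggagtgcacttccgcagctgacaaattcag
Atf3: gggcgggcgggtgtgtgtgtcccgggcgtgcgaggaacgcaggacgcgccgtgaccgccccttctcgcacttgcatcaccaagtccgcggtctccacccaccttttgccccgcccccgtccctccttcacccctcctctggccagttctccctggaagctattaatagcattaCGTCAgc
Btg2: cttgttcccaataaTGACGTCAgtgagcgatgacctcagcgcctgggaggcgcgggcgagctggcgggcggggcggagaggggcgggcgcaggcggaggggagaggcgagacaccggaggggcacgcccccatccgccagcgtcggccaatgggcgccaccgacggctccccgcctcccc
TGACG was present in the windows of *Fos*, *Junb*, *Atf3* and *Btg2*, and in 20.8% of all 32851 windows. *Fos* held it 129 and 66 bases before the start and a TATAAA at 33 bases. TATAAA was also found in the window of *Junb*, directly from the RefSeq start on, and in 13.6% of all windows. Distances are counted from the RefSeq start, which for *Junb* and *Btg2* lies upstream of the GENCODE start given above. The TATAAA of *Junb* thus lies before its GENCODE start at chr8:84978718. The full TGACGTCA was found only in *Btg2* among the 7, at 166 bases, and in 1.79% of all windows. TGACATCA was found in *Jun* and *Klf6* (3.62% of all windows), GAANNTTC in *Jun* (7.86%) and CACGTG in *Klf6* (7.15%). Neither TGACTCA nor the SRE, searched as CCWWWWWWGG with W for A or T, was found in these 7 windows, against 5.20% and 1.63% of all windows. Sites further upstream, other forms of the SRE, and the promoters of *Egr1* and *Ier2* were not searched, so these genes may hold either motif elsewhere. These are matches of letters and not binding sites.

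The deposited FPKM (fragments per kilobase of transcript and per fragments mapped in the library) summed to 554170 to 624746 per library, and 18869 to 20263 genes were above 0. Read counts and depth per gene are unknown from these values. The targeted gene followed its labels: *Arntl* ranged from 0.0919 to 13.2 FPKM in the 12 WT libraries and from 2.1 to 4.21 FPKM in the 12 ΔRRE libraries, and the genotype difference of its 24 h wave had an adjusted p of 0.0463 (limma) and an exact permutation p of 4.29e-05, the smallest this test can give. The adjusted call lay at the threshold: with the replicate number as a block, for example, no gene passed (smallest adjusted p = 0.0771). Hepatocyte markers summed to 29714 to 48076 FPKM in every library, while lymphocyte markers did not exceed 1.71 FPKM in sum. Some libraries stood apart in markers of other cells. Erythrocyte markers summed to 4322 FPKM in ΔRRE CT10 replicate 1 and 4451 FPKM in ΔRRE CT14 replicate 1, above the 466 to 2062 FPKM of the other libraries. These sums were mostly of globin genes, as *Alas2*, the only other gene of the list, did not exceed 58.8 FPKM in any library. Kupffer cell markers were lowest in WT CT22 replicate 1, at 13.0 FPKM, and highest in WT CT6 replicate 1, at 94.9 FPKM. Calls and level differences were therefore also computed without these libraries.

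The 9 genes spanned a wide range of levels, given in FPKM, which is scaled to transcript length. *Ier2*, a short nuclear protein gene of the early response, had the highest mean at 15.0 ± 4.19 FPKM (SD, n = 24). *Junb* followed at 12.4 ± 8.26, *Egr1* at 9.56 ± 14.0, *Btg2* at 5.91 ± 3.51 and *Jun* at 3.63 ± 1.61 FPKM. *Klf6* had 1.57 ± 0.563, *Fos* 0.815 ± 0.820, *Atf3* 0.681 ± 0.518 and *Ier3* 0.460 ± 0.256 FPKM. Neighbours in this order overlapped in their range over the libraries, and the gap between neighbouring means exceeded the larger SD of the pair only for *Jun* and *Klf6*. The 6 genes from *Ier2* to *Klf6* had a mean of at least 1 FPKM and entered the test across 11244 genes. *Fos*, *Atf3* and *Ier3* did not, although every library held some of each, and their tests come from a fit over all 28380 genes above 0 FPKM in any library.

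**Figure D1:**
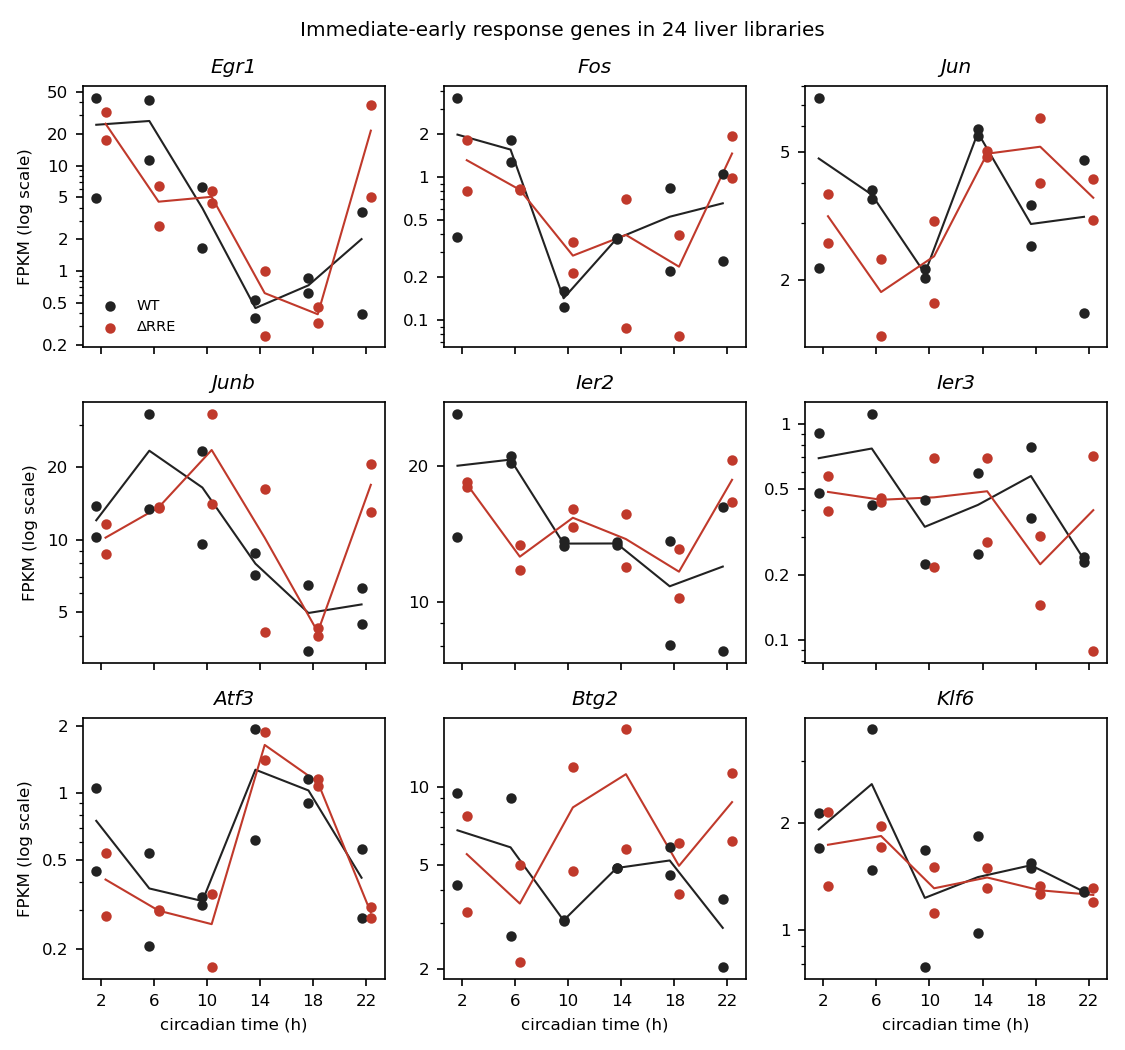
FPKM of the 9 genes (log axis) against circadian time in hours. Points are single libraries, 2 per genotype and time point, black for WT and red for ΔRRE, and lines join the means; *Egr1* fell below 1 FPKM in all 8 libraries of CT14 and CT18, while *Atf3* was highest there.

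Time of day was tested with a 24 h wave, a cosine and a sine fitted to log2(FPKM + 0.1) by limma, with p-values adjusted over all genes tested by the Benjamini-Hochberg method. The amplitude is the fitted height of the wave above its mean on this log2 scale. In WT, 2 of the 6 genes tested passed an adjusted p of 0.05, *Egr1* and *Junb*, and 10.3% of all genes did. In ΔRRE, 2 of 6 passed, *Egr1* and *Jun*, and 4.57% of all genes did. Over both genotypes together, with genotype as a covariate, 2 of 6 passed, *Egr1* and *Junb*, beside 30.6% of all genes. In the fit without a filter, 0 of the 9 passed in WT (1.83% of all 28380 genes) and 0 in ΔRRE (0.694%), and 4 (*Egr1*, *Junb*, *Fos* and *Atf3*) passed over both genotypes (11.3%).

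*Egr1* encodes a zinc finger transcription factor that is among the first genes to answer serum, growth factors and feeding. Its WT libraries held 4.93 and 43.7 FPKM at CT2, 41.5 and 11.3 at CT6, and 6.24 and 1.66 at CT10. They held 0.358 and 0.536 FPKM at CT14, 0.855 and 0.614 at CT18, and 0.396 and 3.62 at CT22. The day libraries of WT from CT2 to CT10 thus all lay above those of CT14 and CT18. The ΔRRE libraries held 32.3 and 17.5 FPKM at CT2, 6.40 and 2.69 at CT6, and 5.71 and 4.4 at CT10. They held 0.993 and 0.245 FPKM at CT14, 0.456 and 0.326 at CT18, and 5.06 and 37.7 at CT22. Here too CT14 and CT18 were below every library of the other times. The highest library exceeded the lowest 178-fold over the series. The amplitude was 2.77 ± 0.45 (SE, n = 12) in WT with a peak at circadian time 4.58 (adjusted p = 0.00612, limma), and 2.57 ± 0.52 in ΔRRE with a peak at 2.73 (adjusted p = 0.0330). Over both genotypes it was 2.59 ± 0.38 (SE, n = 24; adjusted p = 7.98e-05). The ΔRRE call was lost, alone or with that of *Jun*, when CT2 replicate 1 or 2, CT14 replicate 1 or 2 or CT18 replicate 1 or 2 was left out, which took the count from 2 to 1 or 0.

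The AP-1 factors are dimers of a Fos and a Jun family protein. The waves of *Junb*, *Jun* and *Fos* were fitted gene by gene, and their peaks were not tested against each other. *Junb* encodes a Jun family subunit that often restrains growth. It held 33.4 and 13.5 FPKM in WT and 13.7 and 13.6 in ΔRRE at CT6, and 23.3 and 9.65 in WT and 33.2 and 14.0 in ΔRRE at CT10. At CT18 it held 3.45 and 6.5 in WT and 4.0 and 4.30 in ΔRRE. The 8 libraries of CT6 and CT10 were all above the 4 of CT18. *Junb* ranged from 8.77 to 13.8 FPKM at CT2, from 4.14 to 16.3 at CT14 and from 4.47 to 20.7 at CT22. The amplitude was 1.09 ± 0.18 (SE, n = 12) in WT (adjusted p = 0.00701) with a peak at 6.92, and 0.88 ± 0.19 (n = 24) over both genotypes (adjusted p = 0.00386). In ΔRRE it was 0.68 ± 0.31 and did not pass (adjusted p = 0.349).

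*Jun* encodes the founding AP-1 subunit, which responds to JNK signalling. At CT14 its libraries lay close together, with 5.58 and 5.88 FPKM in WT and 5.04 and 4.83 in ΔRRE. Of the 20 libraries of other times, 2 were above the lowest of these, WT CT2 replicate 2 at 7.35 FPKM and ΔRRE CT18 replicate 2 at 6.38 FPKM. In ΔRRE it held 2.33 and 1.35 FPKM at CT6 and 3.05 and 1.70 at CT10, against 4.0 and 6.38 at CT18, 4.13 and 3.08 at CT22 and 3.70 and 2.62 at CT2, so that CT10 replicate 1 lay above CT2 replicate 2. The ΔRRE amplitude was 0.70 ± 0.15 (SE, n = 12; adjusted p = 0.0466) with a peak at 18.0. That call lay close to the threshold. Of the 12 ΔRRE libraries, CT2 replicate 1 and CT22 replicate 2 were the only ones whose omission left it in place, and the ΔRRE count was 0 without the 2 libraries rich in erythrocyte markers. In WT, where CT2 held 2.19 and 7.35 FPKM, CT6 3.80 and 3.57, CT10 2.17 and 2.03, CT18 2.55 and 3.42, and CT22 1.58 and 4.71, the fitted amplitude was 0.06 ± 0.26 (adjusted p = 0.987).

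*Fos* encodes the classic partner of Jun proteins in AP-1. In WT it held 0.380 and 3.61 FPKM at CT2, 1.29 and 1.84 at CT6, 0.124 and 0.160 at CT10, 0.370 and 0.373 at CT14, 0.221 and 0.837 at CT18, and 0.259 and 1.06 at CT22. In ΔRRE it held 1.84 and 0.801 at CT2, 0.812 and 0.824 at CT6, 0.352 and 0.214 at CT10, 0.702 and 0.0872 at CT14, 0.0777 and 0.395 at CT18, and 1.95 and 0.987 at CT22. The 6 libraries above 1 FPKM fell at CT2, CT6 and CT22. In the fit without a filter its amplitude over both genotypes was 1.10 ± 0.26 (SE, n = 24) with a peak at 1.90 (adjusted p = 0.0212), and it did not pass in WT (adjusted p = 0.503) or ΔRRE (adjusted p = 0.250) alone.

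*Atf3* encodes a stress-induced factor of the ATF/CREB family that can pair with Jun proteins. At CT14 it held 1.93 and 0.617 FPKM in WT and 1.87 and 1.41 in ΔRRE, and at CT18 0.902 and 1.15 in WT and 1.16 and 1.08 in ΔRRE. At all other times it lay between 0.166 and 1.05 FPKM, and WT CT2 replicate 2 was its only library there above 0.6 FPKM. The low times of *Egr1* were thus the high times of *Atf3*. Its amplitude over both genotypes was 0.78 ± 0.20 (SE, n = 24) with a peak at 16.5 in the fit without a filter (adjusted p = 0.0346), without a call in WT (adjusted p = 0.578) or ΔRRE (adjusted p = 0.262) alone.

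The other 4 genes had lower amplitudes over both genotypes, and none passed the test in either genotype or over both. *Jun*, called in ΔRRE alone, had an amplitude of 0.37 ± 0.17 over both genotypes and did not pass there (SE, n = 24; adjusted p = 0.209, limma). *Ier2* ranged from 7.78 to 26.04 FPKM, with a median of 13.8, and its amplitude over both genotypes was 0.29 ± 0.10 (SE, n = 24; adjusted p = 0.0807). *Klf6*, a Krüppel-like zinc finger factor, ranged from 0.784 to 3.69 FPKM around a median of 1.49, with an amplitude of 0.26 ± 0.11 (adjusted p = 0.179). *Ier3*, which encodes a regulator of cell survival and of ERK signalling, ranged from 0.0882 to 1.11 FPKM, with an amplitude of 0.30 ± 0.19 (adjusted p = 0.611, no filter). *Btg2*, an antiproliferative gene that is also a p53 target, ranged from 2.03 to 16.5 FPKM and had the lowest amplitude of the 9, at 0.17 ± 0.20 (adjusted p = 0.777). *Ier2* passed over both genotypes when WT CT22 replicate 1 or ΔRRE CT6 replicate 1 was left out, which made 3 genes called in place of 2.

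Between the genotypes, none of the 9 genes was called for a difference in mean level over the 6 time points, which does not show that the levels were equal. In limma with time point as a factor, 0 of the 6 genes tested passed, and 0% of all 11244 genes did. At an unadjusted p under 0.05 the count was also 0 of 6, beside 8.91% of all genes. A two-sided exact permutation test, in which genotype labels were exchanged within time points, gave p from 0.159 for *Btg2* to 0.942 for *Fos*. *Btg2* had the largest difference, 0.47 ± 0.29 on the log2 scale, ΔRRE minus WT (SE, n = 24; adjusted p = 0.681), higher in ΔRRE at 3 of 6 time points. *Egr1* had 0.29 ± 0.55, *Junb* 0.19 ± 0.26 and *Ier2* 0.05 ± 0.15, while *Ier3* had -0.22 ± 0.27, *Atf3* -0.14 ± 0.21, *Klf6* -0.09 ± 0.15, *Jun* -0.06 ± 0.22 and *Fos* -0.03 ± 0.37. Each of these lay within 2 standard errors of 0, and *Egr1* had the widest error. Without the 2 ΔRRE libraries rich in erythrocyte markers *Btg2* had 0.22, *Egr1* 0.15, *Jun* -0.11, *Klf6* -0.13, *Ier3* -0.43, *Atf3* -0.25, *Fos* -0.22 and *Ier2* 0.01. Without the WT libraries lowest and highest in Kupffer cell markers *Btg2* had 0.53, *Egr1* 0.20, *Junb* 0.20, *Jun* -0.12, *Ier3* -0.15, *Atf3* -0.12 and *Fos* -0.19. The sign of *Junb* turned to -0.02 without the former, and those of *Ier2* and *Klf6* to -0.01 and 0.0003 without the latter.

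Differences at single time points went in both directions. At CT6 both WT libraries were above both ΔRRE libraries for *Egr1*, *Fos*, *Jun* and *Ier2*, 4 of 9 genes, where 11.8% of all genes tested did this; the reverse order was seen in 0 of 9 genes and 16.2% of all genes. *Egr1* had a mean of 26.4 FPKM in WT and 4.54 in ΔRRE there, and *Ier2* 20.6 and 12.6 FPKM. At CT22 the order was the opposite, with both ΔRRE libraries above both WT libraries for *Egr1*, *Junb*, *Ier2* and *Btg2*, also 4 of 9, beside 21.7% of all genes, and 15.4% of all genes and 0 of 9 here had WT above. *Egr1* then had a mean of 2.01 FPKM in WT and 21.4 in ΔRRE, *Junb* 5.40 and 16.9, and *Btg2* 2.88 and 8.72 FPKM. *Btg2* was higher in ΔRRE without overlap at CT10 and CT14 as well, with 3.06 and 3.09 against 11.9 and 4.75 FPKM, and 4.88 and 4.87 against 16.5 and 5.76 FPKM. At CT10, where 3 of 9 genes (*Fos*, *Ier2* and *Btg2*) and 17.4% of all genes had ΔRRE above, 0 of 9 and 15.4% had WT above. At CT14 only *Btg2* of the 9 had ΔRRE above (17.4% of all genes) and only *Jun* had WT above (10.9%). The higher ΔRRE library of *Btg2* at both times was the library rich in erythrocyte markers. At CT18 *Jun* alone had ΔRRE above (24.5% of all genes), while *Egr1*, *Ier3* and *Klf6* had WT above (6.72%). At CT2 the libraries overlapped for all 9, where 18.6% of all genes had ΔRRE and 10.9% WT above. Over all 6 time points, 9 of the 54 pairs of gene and time had ΔRRE above WT without overlap and 8 had WT above, beside 19.3% and 11.9% over all genes. The counts of the 9 include *Fos*, *Atf3* and *Ier3*, which lie below the filter of the genes tested. The libraries lowest and highest in Kupffer cell markers belong to WT at CT22 and CT6, and the part of these cells in the differences there was not tested. In bulk tissue, fewer cells of a type and less RNA per cell cannot be told apart. A comparison of 2 libraries with 2 cannot give a two-sided exact p below 0.333.

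**Figure D2:**
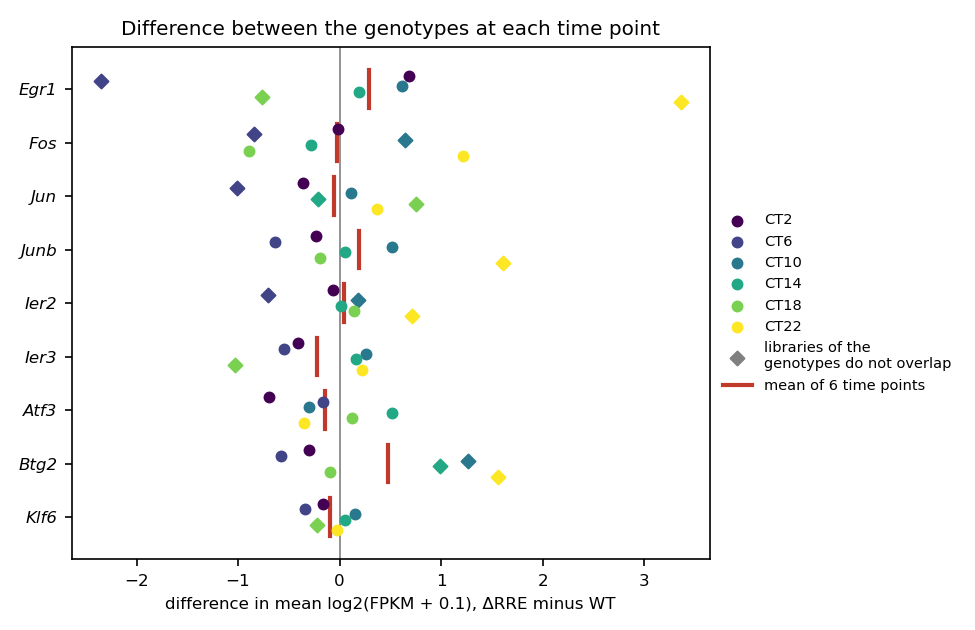
Difference in mean log2(FPKM + 0.1), ΔRRE minus WT, for each of the 9 genes; points are the 6 time points, diamonds those at which the libraries of the genotypes did not overlap, and the red bar is the mean of the 6. The CT22 point of *Egr1* lies at 3.36 and its CT6 point at -2.35, and most genes have points on both sides of 0.

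The difference between the genotypes in the wave itself was tested too. None of the 6 genes passed in limma, none had an unadjusted p under 0.05, and 0.00889% of all genes passed, which was *Arntl* alone. The exact permutation test gave p from 0.118 for *Jun* to 0.910 for *Fos*. *Egr1* peaked at 4.58 in WT and 2.73 in ΔRRE with amplitudes of 2.77 and 2.57, and this difference had an exact p of 0.334. The call of *Jun* in ΔRRE and not in WT, and that of *Junb* in WT and not in ΔRRE, are therefore not shown to differ between the genotypes (exact p = 0.118 and 0.555).

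Libraries of the same genotype and time point differed widely for these genes. The measure used was the absolute log2 difference between the 2 libraries of a pair, averaged over the 12 pairs. It was 1.503 for *Egr1*, 1.09 for *Fos*, 0.90 for *Btg2*, 0.87 for *Ier3* and 0.75 for *Junb*, and 0.59, 0.58, 0.42 and 0.35 for *Jun*, *Atf3*, *Klf6* and *Ier2*. The median over the 9 genes was 0.75, that over all genes tested 0.28, and all 9 were above the latter. *Egr1* was at percentile 99.3 of all genes tested, and 5 of the 9 were above percentile 90. *Fos*, *Ier3* and *Atf3* lie below the filter of the genes they are ranked among here, and *Fos* and *Ier3* are among the 5. Genes of like level were not compared. For the low genes this depended on the constant: with 1 FPKM added in place of 0.1, *Fos*, *Ier3* and *Atf3* had 0.48, 0.32 and 0.25, beside a median of 0.24, and *Atf3* moved from percentile 89.6 to 56.8. The widest *Egr1* pairs were WT CT22 with a 9.15-fold, WT CT2 with an 8.85-fold and ΔRRE CT22 with a 7.45-fold gap between the libraries. At CT18 *Egr1* differed by 1.39-fold in WT and 1.40-fold in ΔRRE. The WT pairs of CT6 and CT10 and the ΔRRE pair of CT14 lay between these, at 3.69-, 3.75- and 4.05-fold.

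The spread between replicates was also set side by side for the 2 genotypes, as a description. It was larger in WT for 7 of the 9 genes, though *Junb* turned over with rescaled libraries and *Fos* with a constant of 0.01 FPKM, with 1.77 in WT and 1.23 in ΔRRE for *Egr1*. It was larger in ΔRRE for *Btg2* (0.68 in WT and 1.11 in ΔRRE) and *Ier3* (0.79 and 0.95), of which *Ier3* had 0.320 and 0.318 with 1 FPKM added. In a two-sided exact permutation test over the 924 divisions of the 12 pairs, 0 of the 6 genes tested passed after adjustment and 0% of all genes did. The smallest p this test can give is 0.00216, so a call after adjustment over all genes was all but out of reach. The absence of such calls therefore decides nothing. Unadjusted exact p ranged from 0.0996 for *Atf3* to 0.879 for *Junb* over the 9, while 5.03% of all genes were under 0.05.

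**Figure D3:**
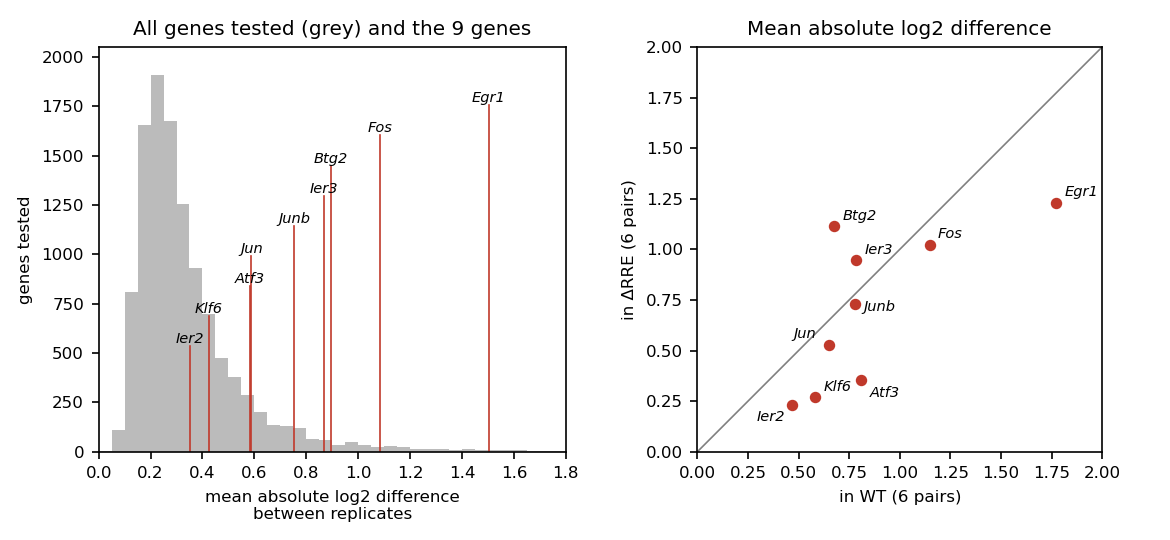
Left, number of genes tested (grey bars) by the mean absolute log2 difference between replicates over 12 pairs, with a red line at each of the 9 genes, whose height carries no value. Right, the same measure in the 6 WT pairs against the 6 ΔRRE pairs with the line of equality; *Egr1* lies at 1.77 and 1.23.

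In 5 of the 12 groups at least 7 of the 9 genes were higher in the same library of the pair. In ΔRRE CT10 all 9 were higher in replicate 1, and in ΔRRE CT14 and WT CT6 8 of 9 were. In WT CT22 8 of 9 and in WT CT2 7 of 9 were higher in replicate 2. At CT18 the genes were split 3 to 6 in both genotypes, and WT CT10 and CT14 and ΔRRE CT2, CT6 and CT22 were split 5 to 4. The lean was not set against that of all genes. By pairs of genes, *Jun* and *Junb* were higher in the same library in 10 of 12 pairs, as were *Ier2* and *Btg2*, and *Atf3* and *Btg2*, while *Ier2* and *Klf6* were in 3 of 12. Summed Kupffer cell markers, which include the defining genes *Clec4f*, *Vsig4* and *Timd4*, moved in the same direction as the median of the 9 genes in 11 of 12 pairs. This counts WT CT14, ΔRRE CT6 and WT CT10, where that median was 0.00, 0.01 and 0.10 on the log2 scale. In the sum *Cd5l* and *Clec4f* had the highest means, at 13.5 and 12.3 FPKM, and *Timd4* had 1.16 FPKM. *Marco*, also in the sum, ranged from 0.920 to 39.0 FPKM. Single Kupffer cell markers were not set against the 9 genes. The ratio of replicate 1 to replicate 2 for these markers was 3.26 in WT CT6, 2.37 in WT CT10 and 0.325 in WT CT22, and 0.436 in ΔRRE CT18. None of the 6 Kupffer cell markers was at 0 in any library, and their sum ranged from 13.0 to 94.9 FPKM in WT and from 26.8 to 64.3 FPKM in ΔRRE. Endothelial markers, at 20.7 to 45.1 FPKM in sum, moved with the 9 genes in 9 pairs, as did lymphocyte markers. Neutrophil markers did so in 7, heat shock genes and hepatocyte markers in 6 each, and erythrocyte, stellate cell and cholangiocyte markers in 5 each. Neutrophil markers summed to 12.1 FPKM in ΔRRE CT14 replicate 1, the highest of all libraries, and to 0.710 FPKM in replicate 2. In ΔRRE CT10 and CT14 the ratio of erythrocyte markers was 3.40 and 3.61. The part of these cells in the spread was not tested. Without the 2 WT libraries lowest and highest in Kupffer cell markers, the genes called were again *Egr1* and *Junb* in WT and over both genotypes.

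**Figure D4:**
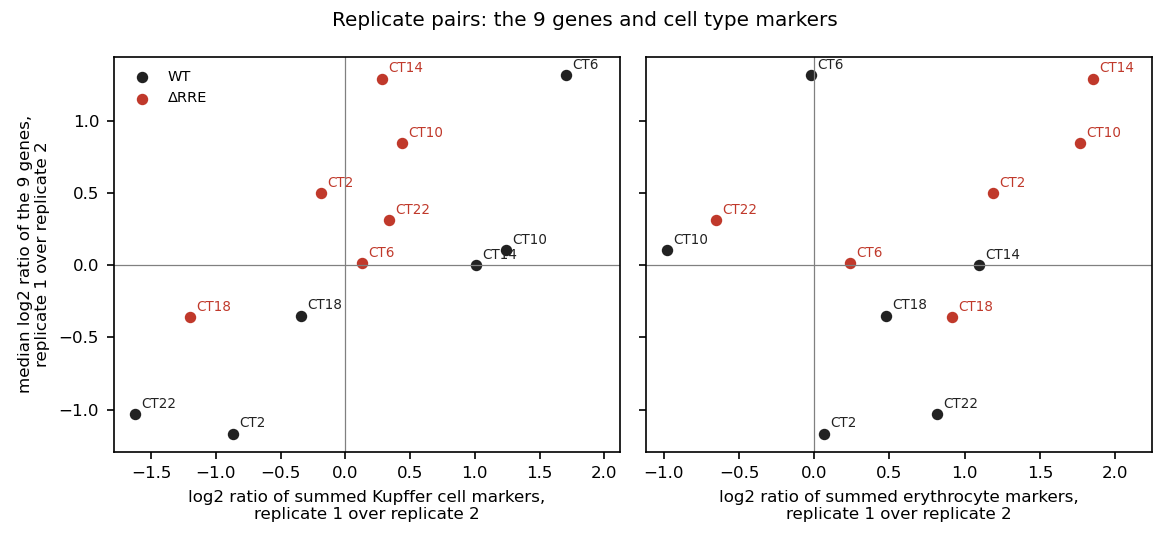
Median log2 ratio of the 9 genes between replicate 1 and replicate 2 of each of the 12 groups, against the log2 ratio of the summed Kupffer cell markers (left) and erythrocyte markers (right); black WT, red ΔRRE, labels give the time point. In 11 of 12 groups the 9 genes and the Kupffer cell markers lie on the same side of 0, against 5 of 12 for erythrocyte markers. In WT CT14, ΔRRE CT6 and WT CT10 the median of the 9 genes lies near 0.

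Across the 24 libraries the genes differed in which of the others they followed. *Egr1* followed *Ier2* with Pearson r = 0.749 (Spearman rho = 0.757), *Fos* with r = 0.670 and *Junb* with r = 0.666, while its r with *Atf3* was -0.513. *Atf3* followed *Jun* with r = 0.657, and *Ier3* followed *Klf6* with r = 0.647. These are descriptions over libraries that share time points and genotypes, and all values of a library share its depth. After the mean of each genotype and time point was removed, *Fos* and *Jun* had r = 0.805 and *Junb* and *Ier3* r = 0.717. The r of *Egr1* with *Atf3* then changed sign, from -0.513 to 0.457. *Egr1* had r = 0.527 with *Ier2*, 0.452 with *Fos* and 0.416 with *Junb* by this measure. *Atf3* and *Jun* had r = 0.473, and *Ier3* and *Klf6* r = 0.522.

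The genes most like each member among all genes tested were mostly outside the early response. By Pearson r over the 24 libraries, *Egr1* was nearest to *Cwf19l2* (r = 0.834), *Crot* (r = 0.814), which encodes a peroxisomal carnitine transferase, and *Tent2* (r = 0.800). *Junb* was nearest to *Mafk* (r = 0.891), a small Maf factor of the early response list, *Leprot* (r = 0.868) and *Nudt4* (r = 0.854). *Atf3* was nearest to *Rcan1* (r = 0.870), an inhibitor of calcineurin, *Mybbp1a* (r = 0.867) and *Ddit3* (r = 0.854), the stress factor CHOP. *Fos* was nearest to the endothelial cadherin *Cdh5* (r = 0.785), *Cd38* (r = 0.732) and *Gm13889* (r = 0.719). *Jun* was nearest to *Dnttip2* (r = 0.733), *Haus3* (r = 0.726) and *Rbm15* (r = 0.722), and *Ier2* had *Egr1* (r = 0.749) and *Lmo2* (r = 0.725) among its nearest. *Btg2* was nearest to *Abhd2* (r = 0.750), *Hmgn1* (r = 0.697) and the kinase gene *Sik1* (r = 0.681). *Ier3* was nearest to *Rit1* (r = 0.706), *Lgals3* (r = 0.665) and *Morf4l1* (r = 0.663), and *Klf6* to *Gsr* (r = 0.723), *Haus7* (r = 0.704) and *Psmb5* (r = 0.696). Of the 27 genes given by this rule, 11 were named again by Spearman rho and 2 after group means were removed.

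Other immediate-early and early response genes were taken as a list of 46, of which 30 had a mean of at least 1 FPKM. Over both genotypes 15 of the 30 passed the 24 h wave, beside 30.6% of all genes. In WT 10 passed (10.3% of all genes) and in ΔRRE 2 (4.57%). The peaks of the 15 ran from 0.856 to 23.1 h of circadian time. With *Egr1* and *Junb* in the morning and around midday peaked *Btg1* (0.856 h, amplitude 0.69 ± 0.09, SE, n = 24), the relative of *Btg2*, *Mafk* (6.72 h, 0.46 ± 0.09) and *Zfp36* (7.06 h, 0.54 ± 0.09), which encodes an RNA-binding protein that shortens the life of early mRNAs. *Nfkbia* (9.33 h, 0.24 ± 0.07) and *Maff* (9.58 h, 1.02 ± 0.20) followed. Around the change from day to night peaked *Cebpd* (12.1 h, 0.39 ± 0.12), *Cebpb* (12.5 h, 0.58 ± 0.10), *Csrnp1* (12.5 h, 0.65 ± 0.18), *Klf10* (12.9 h, 0.78 ± 0.16), the clock gene *Per1* (13.5 h, 1.84 ± 0.17), which also answers glucocorticoid and CREB signals, and *Plk3* (13.9 h, 0.87 ± 0.15). *Sik1* peaked at 15.4 h (0.72 ± 0.15) and *Dusp1*, a phosphatase that shuts off MAP kinases, at 18.5 h (0.76 ± 0.16). *Crem* (22.9 h, 0.51 ± 0.09) and *Zfp36l1* (23.1 h, 0.53 ± 0.10) peaked late in the night. Amplitudes are on the log2(FPKM + 0.1) scale and each of the 15 had an adjusted p from 1.39e-07 to 0.0408 (limma). The highest levels of the list were those of *Cebpb*, *Zfp36l1*, *Mcl1* and *Jund*, at 82.0, 47.7, 31.6 and 24.9 FPKM on average, and *Mcl1* (adjusted p = 0.0575) and *Jund* (adjusted p = 0.123) did not pass.

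None of these 30 genes passed the test of a genotype difference in level, but 11 (against 8.91% of all genes) reached 0.05 before adjustment, 9 with the higher level in ΔRRE. Among them were *Sik1* at 0.65 ± 0.21, *Btg1* at 0.47 ± 0.13, *Plk3* at 0.44 ± 0.20, *Crem* at 0.30 ± 0.13 and *Mafk* at 0.33 ± 0.12, ΔRRE minus WT on the log2 scale (SE, n = 24). Lower in ΔRRE were *Gadd45a* at -0.51 ± 0.18 and *Cyr61* at -0.34 ± 0.16. Their smallest adjusted p was 0.332, for *Btg1*. Over all genes tested, 805 of 1002 such genes were likewise higher in ΔRRE.

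Of 15 upstream regulators, which carry signals to the early response and were all tested, 3 passed the 24 h wave over both genotypes (beside 30.6% of all genes), and none in WT or ΔRRE alone. These were *Elk4* (7.63 h, 0.26 ± 0.08, SE, n = 24), a ternary complex partner of SRF, *Mapk3* (7.07 h, 0.22 ± 0.05), which encodes ERK1, and *Mkl2* (21.8 h, 0.42 ± 0.08), an actin-sensing SRF coactivator. The 12 others did not pass, among them *Srf* (adjusted p = 0.163), *Creb1* (adjusted p = 0.620), and the abundant kinase genes *Map2k2*, *Map2k1* and *Mapk14*, with means of 58.4, 17.2 and 16.6 FPKM. None of the 15 passed for genotype.

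The 7 heat shock genes all passed over both genotypes, where 30.6% of all genes did, and 4 passed in WT (10.3%) and 1 in ΔRRE (4.57%). Over both genotypes they had peaks from 15.5 to 19.8 h and amplitudes from 0.74 ± 0.16 for *Hspa8* to 1.79 ± 0.36 for *Hspa1b* (SE, n = 24). *Hspa1a* (16.1 h), *Dnajb1* (16.3 h), *Hsph1* (17.6 h), *Hsp90aa1* (19.2 h) and *Hspb1* (19.8 h) lay in the same span, in which *Atf3* had its peak at 16.5 and *Jun*, in ΔRRE, at 18.0. These genes encode chaperones that heat shock factor 1 induces. Their sum ranged from 257 to 1020 FPKM in WT and from 196 to 1155 FPKM in ΔRRE. None passed for genotype, with a median difference of -0.15 on the log2 scale, beside 0.04 over all genes tested.

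**Figure D5:**
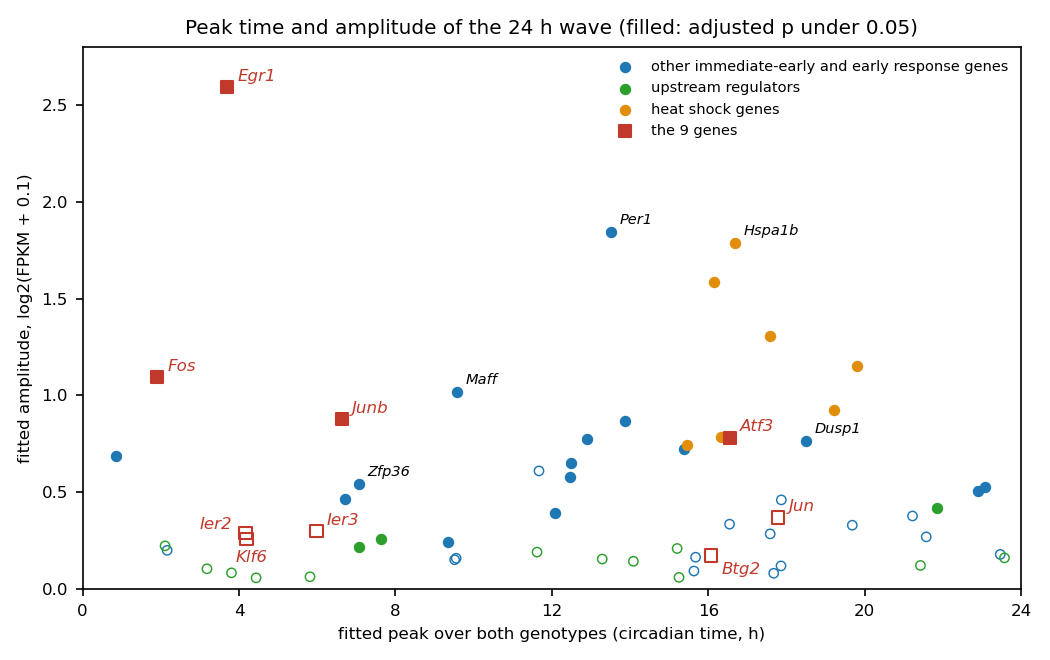
Fitted amplitude on the log2(FPKM + 0.1) scale against fitted peak in hours of circadian time, over both genotypes. Squares are the 9 genes and circles the listed genes, filled where the adjusted p was under 0.05, with *Fos*, *Atf3* and *Ier3* from the fit without a filter; *Egr1* is highest at 2.59, and the heat shock genes lie between 15.5 and 19.8 h near *Atf3*.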

How the data were processed

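Liver poly(A) RNA of 24 libraries was sequenced with a directional kit. The authors deposited 1 table of FPKM per library, with replicates not pooled; a table of the whole series held the same values and was not used again. Per the submitters' processing notes, Trimmomatic 0.39, HISAT2 2.1.0, StringTie 1.3.5 and mm10 were named, and the gene annotation is not given in the sources used here. FPKM carry no counts, so count models and counting errors could not be had. Near-identical genes and overlapping transcripts were apportioned by the authors' program. Samples were grouped by genotype and time in their labels.

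The deposited FPKM were used as log2(FPKM + 0.1). Of 54733 genes, 11244 averaged 1 FPKM or more over the 24 libraries and were tested, and models were fitted with limma 3.58.1 (trend prior, R 4.3.3), with Benjamini-Hochberg adjustment over all genes and a threshold of 0.05. A fold change on this scale understates changes of low genes. BIO_CYCLE, which the study used, was not run. Exact permutation tests used Python 3.11.15, and steps were tested on simulated data. The alternatives were constants of 1 and 0.01 FPKM, no filter, a mean of at least 5 FPKM, rescaling by the median of ratios, no trend, the replicate number as a block, time as a factor and leaving out libraries. Every gene of the group is named, with the 3 genes of highest Pearson r to each, the list genes past the test and up to 4 of the highest mean. *Arntl* is named as the targeted gene. Other genes named (those under the filter, those short of the adjusted threshold, and *Srf* and *Creb1*) were chosen after their values were seen. A few genes that this rule gives are not reported here. The members and lists were chosen with earlier results of these data known.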

Additional observations from a re-analysis of the deposited data

How the results depend on the processing

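The count of genes called for a 24 h wave depended on the settings, most of all in ΔRRE. In WT it was 2 and became 0 without a filter and 0 with time point as a factor. In ΔRRE it was 2 and became 0 without a filter, 1 with a mean of at least 5 FPKM (where *Jun* was not tested), 1 without a trend, 1 with time as a factor, and 0 without the 2 libraries of highest erythrocyte marker sum, a choice made after seeing the data. Leaving out each library in turn gave 2 to 2 in WT, 0 to 2 in ΔRRE and 2 to 3 over both genotypes; the count of 2 over both became 4 without a filter, where 9 genes were tested. *Egr1* in ΔRRE was lost without either library of CT14 or CT18 or either of CT2, and *Jun* without either library of CT6, CT10, CT14 or CT18, without CT2 replicate 2 or without CT22 replicate 1. The cause was not tested. Genotype differences in level and wave stayed at 0 in each alternative run. The log2 differences, ΔRRE minus WT, that changed sign when a library was left out ranged from -0.0634 to 0.554 for *Egr1*, -0.203 to 0.144 for *Fos*, -0.173 to 0.0592 for *Jun* and -0.0523 to 0.108 for *Ier2*. Without the erythrocyte-rich libraries that of *Junb* was -0.0233, and without the WT libraries lowest and highest in Kupffer cell markers those of *Ier2* and *Klf6* were -0.00815 and 0.000295. In all, 269 of 289 such values kept their sign. That count includes settings that cannot change the value, namely no filter, the higher filter, no trend and the replicate block, so it overstates the stability. No replicate spread moved by more than 1 SD of its single pair differences under another constant or rescaling, but that SD is a wide measure. With 1 FPKM added, *Fos* fell from 1.09 to 0.48, *Ier3* from 0.87 to 0.32 and *Atf3* from 0.58 to 0.25.

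With the replicate number as a block, 2 genes were called in WT, 2 in ΔRRE and 2 over both genotypes, and 0 for level and 0 for wave, so the block changed no count for these genes; over all genes the wave difference of *Arntl* was lost (0 called, smallest adjusted p = 0.0771). Whether the replicate numbers pair libraries was not settled. Deviations of libraries with the same number had r from -0.138 to 0.305 (median 0.067) over 66 pairs of groups, over 0.1 in 20 of them. With the block 1189 of all genes were called in WT, 556 in ΔRRE and 3562 over both genotypes, beside 1157, 514 and 3437 without it. Over all genes, 1157 were called in WT, 519 without a filter, 361 with time as a factor and 652 without the WT libraries lowest and highest in Kupffer cell markers; leaving out single libraries gave 740 to 1157. In ΔRRE 514 were called, 197 without a filter and 174 without the erythrocyte-rich libraries, and 298 to 554 when single libraries were left out. For the wave difference 1 gene was called, with 0 to 4 under the alternatives. With 2 libraries per group and no counts, small differences could not be resolved for the low genes *Fos*, *Atf3* and *Ier3*.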

Other observations

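Of the list of 46 other early response genes, 16 had a mean under 1 FPKM. *Egr2*, *Egr3* and *Nr4a3* had means of 0.0133, 0.0103 and 0.0110 FPKM and were above 0 in 8, 8 and 7 of 24 libraries, and *Egr4* was listed at 0 in all 24, while their relative *Egr1* reached 43.7 FPKM. *Fosb* and *Fosl1* had means of 0.0390 and 0.0787 FPKM, below *Fos* at 0.815 FPKM. *Nr4a1* reached 1.83 FPKM and *Gadd45b* 2.97 FPKM in their highest library. *Arc*, known from neurons, was above 0 in 4 libraries.

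Some markers of other liver cells passed the 24 h wave over both genotypes in limma, as 30.6% of all genes did, and whether these lists stand apart from all genes was not tested. Passing were 3 of 6 endothelial markers, *Cdh5* (2.62 h, amplitude 0.43 ± 0.09, SE, n = 24), *Clec4g* (1.43 h, 0.29 ± 0.08) and *Stab2* (4.86 h, 0.28 ± 0.08), and 3 of 4 stellate cell markers, *Lrat* (22.9 h, 0.53 ± 0.12), *Reln* (22.3 h, 0.36 ± 0.10) and *Dcn* (23.1 h, 0.32 ± 0.09). Of 3 cholangiocyte markers, *Sox9* (22.6 h, 0.66 ± 0.12) and *Krt19* (22.5 h, 0.48 ± 0.15) passed, and of 5 hepatocyte markers *Ttr* (0.516 h, 0.19 ± 0.05) and *Apoa1* (11.4 h, 0.14 ± 0.04) did. None of the 6 Kupffer cell markers passed, with amplitudes from 0.15 to 0.48, nor did any of 5 erythrocyte markers. The globin genes *Hba-a1*, *Hba-a2*, *Hbb-bs* and *Hbb-bt* were 0.67 to 0.73 higher in ΔRRE on the log2 scale, with unadjusted p from 0.0227 to 0.0379 and adjusted p from 0.475 to 0.531. The remaining erythrocyte marker, *Alas2*, had a difference of 0.08 ± 0.13 (unadjusted p = 0.530, adjusted p = 0.915, limma). The highest erythrocyte marker sums were those of ΔRRE CT10 replicate 1 and CT14 replicate 1, at 4322 and 4451 FPKM. The neutrophil marker *S100a9* had a difference of 1.23 (adjusted p = 0.465).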
